A study of Mus musculus with 2 samples.

Results

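The Mincle and Dectin-2 lectin cluster is a run of C-type lectin receptor genes on mouse chromosome 6. Its 7 members here were Clec4e, Clec4d, Clec4n, Clec4b1, Clec4a2, Clec4a3 and Clec4a1, of 21911 protein-coding genes on the assembled chromosomes. They were chosen by name and place, not by any measured value, though earlier results of these data were known. Between them they span 368 kb, chr6:122921848-123289870 (GRCm38/mm10). An open region was given to a member as a promoter region when it reached into the 1 kb up- or downstream of one of its start sites in GENCODE M21. It was given as a distal region when its summit lay over 1 kb from every annotated start site and no more than 50 kb from the 5′-most start of a member. A region shared by several members was counted once. By these rules the members had 23 regions in the lists used, 6 at promoters and 17 distal.

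The data are ATAC-seq, in which a transposase cuts and tags accessible DNA. The 2 libraries, biological replicates 1 and 2, form 1 group: neutrophils of peripheral blood from adult C57BL/6J mice aged 5 to 6 weeks, 50000 cells each. Both carry the same donor record under separate biosample records, so the spread between them may be technical. No genotype, agent or purification step is named, sex was not collected, and there is no other cell type or condition to compare with.

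Mincle (Clec4e), MCL (Clec4d) and Dectin-2 (Clec4n) are receptors that myeloid cells use to sense glycolipids and mannans of mycobacteria and fungi. They signal through the adaptor chain Fcer1g, the kinase Syk and the Card9, Bcl10 and Malt1 complex. DCIR (Clec4a2) instead carries an inhibitory cytoplasmic motif that recruits phosphatases such as Ptpn6 (SHP-1). Clec4a3, Clec4a1 and Clec4b1 (DCAR) are related genes, and whether their products activate or inhibit is not considered here. The deposited lists hold peaks, not transcripts, so accessibility is described here and expression is not.

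The sequences below are the summits of 5 regions with 50 bp on either side, shown because they are the Mincle promoter and the distal regions around Clec4n and Clec4d that were in both replicates and held a motif string, apart from a duplicated region printed further on. Sequences are from the RefSeq GRCm38.p6 genome, 5′ to 3′. Capitals mark the strings TTGCNNAA (C/EBP), GAGGAAGT (PU.1), TGANTCA (AP-1) and TGTGGT (RUNX), read on either strand. The Mincle promoter window is chr6:123289902-123290002 on the minus strand, on which the gene lies. The other windows are on the plus strand, at chr6:123227667-123227767, chr6:123207605-123207705, chr6:123252909-123253009 and chr6:123265988-123266088, in the order shown.
Clec4e promoter: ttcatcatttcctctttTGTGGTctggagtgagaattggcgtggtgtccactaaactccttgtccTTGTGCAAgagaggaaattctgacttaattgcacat
Clec4n, 2.13 kb upstream: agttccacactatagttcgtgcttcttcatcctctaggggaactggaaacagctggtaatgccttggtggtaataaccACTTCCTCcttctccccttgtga
Clec4n, 22.2 kb upstream: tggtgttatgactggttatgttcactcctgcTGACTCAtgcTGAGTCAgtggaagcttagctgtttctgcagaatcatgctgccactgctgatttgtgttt
Clec4d, 9.15 kb upstream: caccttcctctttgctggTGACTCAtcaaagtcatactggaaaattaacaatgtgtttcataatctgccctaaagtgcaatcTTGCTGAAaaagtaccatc
Clec4d, 3.93 kb downstream: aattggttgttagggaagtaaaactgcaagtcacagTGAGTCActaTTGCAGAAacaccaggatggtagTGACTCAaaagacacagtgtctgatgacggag

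The members were read in 5 lists. Per replicate there is a list cut at an irreproducible discovery rate (IDR), a measure of how far the rank of a peak recurs between repeats, and a less strict pseudoreplicated list. A conservative IDR list was made from both replicates together. After overlapping peaks were merged, the members held 16 of 27709 regions in the IDR list of replicate 1 and 11 of 14548 in that of replicate 2. They held 24 of 47640 and 16 of 29848 regions in the pseudoreplicated lists of replicates 1 and 2, and 15 of 24882 in the conservative list. Each peak carries the authors' signal value, a score with no definition in the sources used here, which is used below to rank peaks within a list. Read counts were not used, and the depth of each library is unknown.

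The cells were checked against markers before the members were read. Of 12 neutrophil marker genes, 9 had a promoter region in the IDR list of replicate 1 and 3 in both lists, or 25%, with Itgb2 and Mmp8 the highest. In both IDR lists the share over all protein-coding genes was 39.8%, so the neutrophil markers lay below it. In replicate 2 they did too, with 3 of 12 against 40.3%. They lay above it in replicate 1, with 9 of 12 against 47.1%, and in the conservative list, with 8 of 12 against 46.7%. Both pseudoreplicated lists also held 8 of 12, against 49.8%. Fpr2, Lcn2 and Ly6g had none in either IDR list, the last named after its values were seen. Of 8 B cell markers, 4 had a promoter region in both IDR lists, led by Pax5 and Ms4a1. That is 50%, above the share of all genes. In replicate 1, the conservative list and both pseudoreplicated lists they numbered 6, 6 and 7. Promoter regions in both IDR lists were also found for 1 of 8 monocyte and macrophage markers (Cd68). The same held for 1 of 7 T cell markers (Cd3d) and 1 of 6 dendritic cell markers (Flt3). The 6 platelet and 6 erythroid markers had 0 each that were in both IDR lists. In replicate 1, the conservative list and both pseudoreplicated lists, monocyte and macrophage markers numbered 2, 2 and 3. In the same order, T cell markers numbered 3, 3 and 3, and dendritic cell markers 1, 1 and 2. Platelet markers numbered 1, 1 and 1, and erythroid markers 0, 1 and 0. The part of other blood cells in the regions below was not tested, and how many cells held a region open cannot be told from a peak list.

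Accessible promoters were found for some members of the cluster and not for others. In both IDR lists 3 of the 7 members, Clec4e, Clec4a3 and Clec4a2, had a promoter region, against 39.8% of the 21911 protein-coding genes. No member has a CpG-rich promoter, judged around its 5′-most start site. Their observed-to-expected CpG ratios there ran from 0.0657 at Clec4a2 to 0.343 at Clec4a3. The Clec4a2 promoter region lies 16.9 kb from that site, and the CpG class of the start it lies at was not computed. Among the 12184 genes without a CpG-rich promoter, judged in the same way, 18.2% had a region in both lists. Replicate 1 alone gave 5 members, with Clec4a1 and Clec4d added, against 47.1% of all genes and 25.1% of those without a CpG-rich promoter. Replicate 2 gave the same 3 as both lists together, against 40.3% and 18.5%. The conservative list held 5 members, against 46.7% and 24.5%, and both pseudoreplicated lists held the same 5, against 49.8% and 26.6%. Clec4n and Clec4b1 had no promoter region in any list. With 7 genes and 2 libraries these counts describe the cluster and carry no test.

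**Figure D1:**
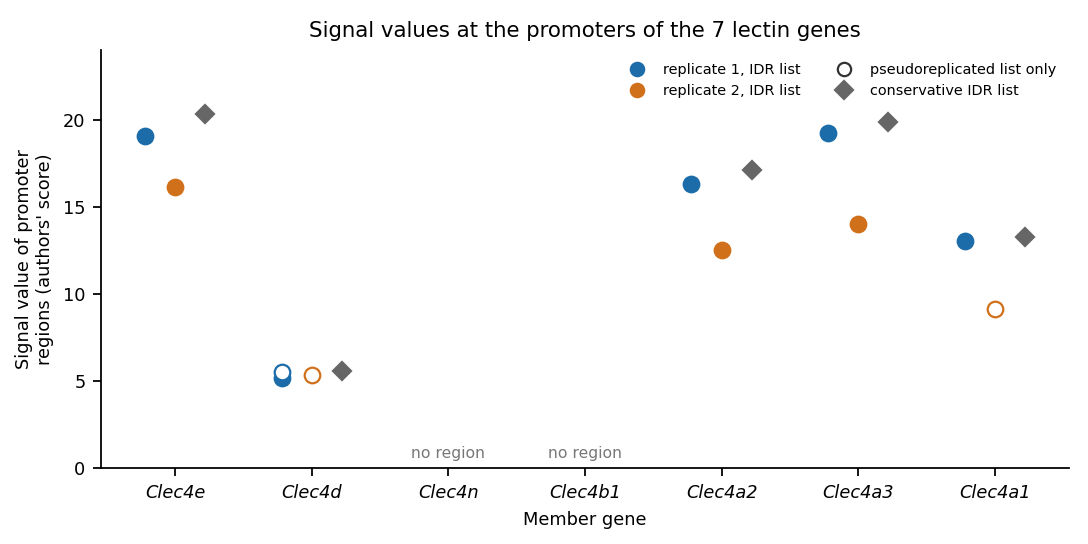
Signal values (the authors' score, vertical axis) of the promoter regions of the 7 genes, with circles for replicates 1 and 2, open where only the pseudoreplicated list holds the region, and grey diamonds for the conservative IDR list. Clec4e, Clec4a2 and Clec4a3 lie between 12.5 and 20.3 in every list, the Clec4d regions lie between 5.20 and 5.58, and Clec4n and Clec4b1 have no region; the 2 points of Clec4d in replicate 1 are separate regions.

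Of Mincle, MCL and Dectin-2, Mincle alone had a promoter region in both IDR lists at the 1 kb width. At 2.5 kb Dectin-2 and MCL had one too, and the values of the Dectin-2 region, given below, were above those of Mincle in every list. Clec4e lies at chr6:123281789-123289870 on the minus strand. Its promoter region had signal values of 19.1 in replicate 1 and 16.2 in replicate 2, ranked above 96.7% and 81.4% of the regions of their lists. In the conservative list the value was 20.3, above 95.4%, and the region, chr6:123289497-123290100, had its summit 82 bp upstream of the start site. The authors' −log10 p for this peak was 99.7 in replicate 1, 45.5 in replicate 2 and 141 in the conservative list. In the window printed above, the RUNX string begins 33 bp before the summit and the C/EBP string spans 15 to 22 bp after it, in the direction of transcription. Among the 11644 promoter windows of the conservative list, 3.41% held the C/EBP string and 5.70% the RUNX string.

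Clec4d, whose product MCL forms complexes with Mincle, had only weak regions at its start sites. The gene lies at chr6:123262111-123275265. A region with its summit 355 bp upstream of the 5′-most start site had signal values of 5.54 and 5.38 in the pseudoreplicated lists of replicates 1 and 2 and was in neither IDR list. The conservative list held it at 5.58, above only 3.51% of its regions. Replicate 1 alone listed another region, with a value of 5.20, inside a Clec4d exon and 642 bp upstream of the start of a retained-intron transcript. That region ranked above only 3.09% of its list.

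Clec4n, which encodes Dectin-2, had no region within 1 kb of its 4 annotated start sites, and the strongest region of the cluster lay upstream of that limit. The gene lies at chr6:123229843-123247021. The ranked lists, which hold peaks that did not pass the IDR threshold too, also had 0 peaks within 1 kb of any Clec4n start. At 2.13 kb upstream of the 5′-most start site lay a region with signal values of 20.8 in replicate 1 and 16.8 in replicate 2, above 98.5% and 84.5% of the regions of their lists. It spanned chr6:123227395-123228072, was intergenic and had a value of 21.9 in the conservative list, above 97.5%. Its window holds the PU.1 string on the strand opposite to the gene, 28 to 35 bp past the summit, as 8.82% of the 13238 distal windows of that list do. Because the rule set the limit at 1 kb, this region was counted as distal. With a promoter width of 2.5 kb Clec4n has a region in both IDR lists.

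Clec4b1, encoding DCAR, had neither a promoter region in any list nor a distal region in both IDR lists. The gene lies at chr6:123049962-123071555, and none of the ranked lists had a peak within 1 kb of its 2 start sites. It had 0 distal regions within 50 kb in the IDR list of replicate 2 and 1 in that of replicate 1. That region, 11.1 kb upstream of Clec4a2, had a value of 7.84. It was absent from both lists of replicate 2 and from the conservative list.

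The DCIR-type genes Clec4a2, Clec4a3 and Clec4a1 each had a promoter region, 2 of them in both IDR lists. Clec4a3, at chr6:122952515-122969875, had signal values of 19.2 in replicate 1 and 14.0 in replicate 2, above 96.9% and 67.9% of the regions of their lists. Its summit lay 57 bp upstream of one of its 3 start sites. Clec4a2, at chr6:123106428-123143999, had values of 16.3 and 12.5 in replicates 1 and 2, above 90.0% and 56.4%. Its region lay 16.9 kb downstream of the 5′-most annotated start site and 24 bp upstream of another protein-coding start. No list held a region at the 5′-most Clec4a2 start site.

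The Clec4a1 promoter narrowly missed the IDR threshold in replicate 2. The gene lies at chr6:122921848-122934619. Its promoter region, with a summit 227 bp upstream of its only start site, had a value of 13.1 in the IDR list of replicate 1, above 74.9%. In replicate 2 only the pseudoreplicated list held it, with a value of 9.17. The −log10 IDR of that peak was 1.20, against the 1.30 that an IDR of 0.05 requires. In the comparison of the replicates its IDR was 0.00341, and the conservative list held it at 13.3.

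The summit windows of these 3 promoters share a run of bases, which was noticed in the sequences and was not among the motif strings. The longest string common to all 3 windows was TGGTTCCTCTTT, 12 bp long and on the strand of the genes. The sequences below show it in capitals, without the bases that fall in annotated exons. They cover chr6:123123242-123123315, chr6:122952541-122952637 and chr6:122921571-122921671, all on the plus strand.
Clec4a2 promoter: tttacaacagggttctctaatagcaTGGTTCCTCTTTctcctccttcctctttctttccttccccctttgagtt
Clec4a3 promoter: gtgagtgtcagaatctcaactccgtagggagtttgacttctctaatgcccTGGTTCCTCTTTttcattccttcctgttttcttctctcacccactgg
Clec4a1 promoter: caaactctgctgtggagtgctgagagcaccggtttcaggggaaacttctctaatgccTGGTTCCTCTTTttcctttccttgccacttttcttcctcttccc
Because the string was taken from these windows, its presence in all 3 was fixed by that choice. Searched on both strands across the conservative list, it was in 7 of 11644 promoter windows, these 3 and that of Clec4a4 among them, or 0.0601%, and in 14 of 13238 distal windows, or 0.106%. It begins 25 bp before the summit at Clec4a2, and 4 and 7 bp after it at Clec4a3 and Clec4a1. Aligned end to end with gaps allowed, the full windows of Clec4a1 and Clec4a3 were identical at 64.7% of aligned positions. Those of Clec4a1 and Clec4a2 were identical at 52.0%, and those of Clec4a3 and Clec4a2 at 47.3%. No unrelated windows were aligned, so whether these identities, or that of Clec4a4 below, exceed those of unrelated windows was not tested. The summit base at Clec4a2 is repeat-masked in the genome. The neighbouring gene Clec4a4, another DCIR-type gene and not a member, had the string too, and its window matched that of Clec4a2 at 66.9% of positions. Its promoter region was in both pseudoreplicated lists, at 8.96 in replicate 1 and 6.85 in replicate 2, and in the conservative list at 9.62, and in neither IDR list.

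**Figure D2:**
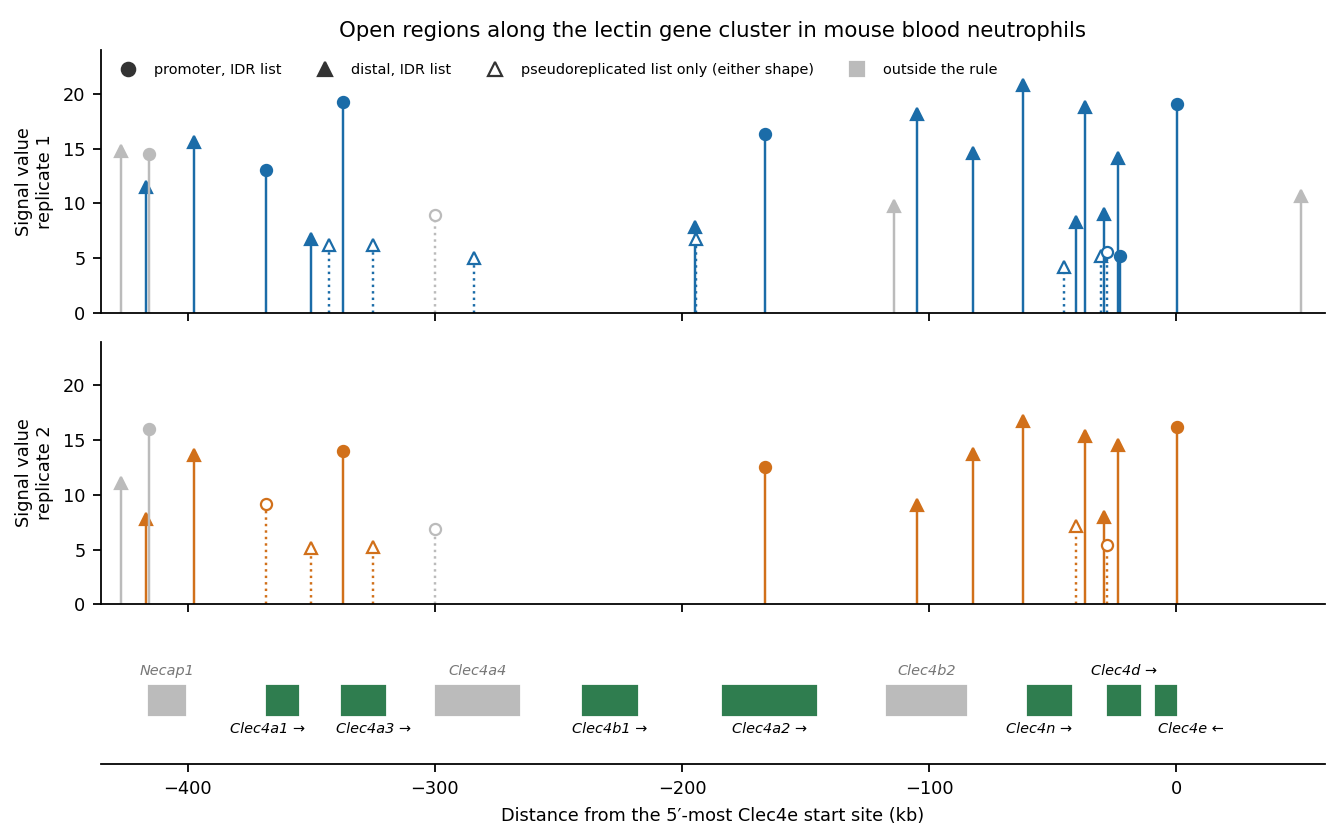
Open regions along the cluster, with the distance from the 5′-most Clec4e start site in kb on the horizontal axis, the authors' signal value on the vertical axes (replicate 1 above, replicate 2 below) and gene bodies at the bottom, members in green and other genes in grey. Circles are promoter regions and triangles distal ones, open and dotted where only the pseudoreplicated list holds them, and grey where they fall outside the rule; the strongest region, upstream of Clec4n, stands at 20.8 in replicate 1 and 16.8 in replicate 2, and no region lies within the Clec4b1 gene body.

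The distal regions were concentrated at the Clec4n, Clec4d and Clec4e end of the cluster. The IDR list of replicate 1 held 11 of them and that of replicate 2 held 8, and all 8 overlapped a region of replicate 1. Counted up to 50 kb from their 5′-most starts, Clec4n had 6 regions in both lists, Clec4d 4, Clec4e 3 and Clec4a1 2, and Clec4a2, Clec4a3 and Clec4b1 had 0. These windows overlap, so the same regions recur in the counts of Clec4n, Clec4d and Clec4e. At least 1 such region was found for 4 of the 7 members, against 27.5% of all protein-coding genes. The members had a mean of 2.14 per gene, against 0.429 over all genes, a region counting once for each member near it. The IDR list of replicate 2 gave 2.14 against 0.433. In proportion the gap was smaller in the other lists. The means were 3.14 against 1.17 in the IDR list of replicate 1 and 2.86 against 1.02 in the conservative list. The pseudoreplicated lists gave 5.43 against 2.17 in replicate 1 and 3.14 against 1.22 in replicate 2. As many as 6 regions in both IDR lists were found for 16 of the 21911 genes (0.0730%). As many as 4 were found for 262 and as many as 3 for 821. The IDR list of replicate 2 gave Clec4n 6 regions, matched by 17 genes. In the other lists its count was less rare. It was 7 in the IDR list of replicate 1, matched by 255 genes (1.16%), and 7 in the conservative list, matched by 184 (0.840%). The pseudoreplicated lists gave 10 in replicate 1, matched by 376, and 7 in replicate 2, matched by 335. The 6 include the region 44.8 kb upstream, which has a near copy described below. Regions 2.13 kb upstream of Clec4n, and 1.73 kb upstream and 3.93 kb downstream of the 5′-most Clec4d start, are also among the 6. They lie 2126, 1732 and 1684 bp from the nearest annotated start, so a limit of 2.5 kb leaves them out. Counts per gene at that limit were not computed.

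**Figure D3:**
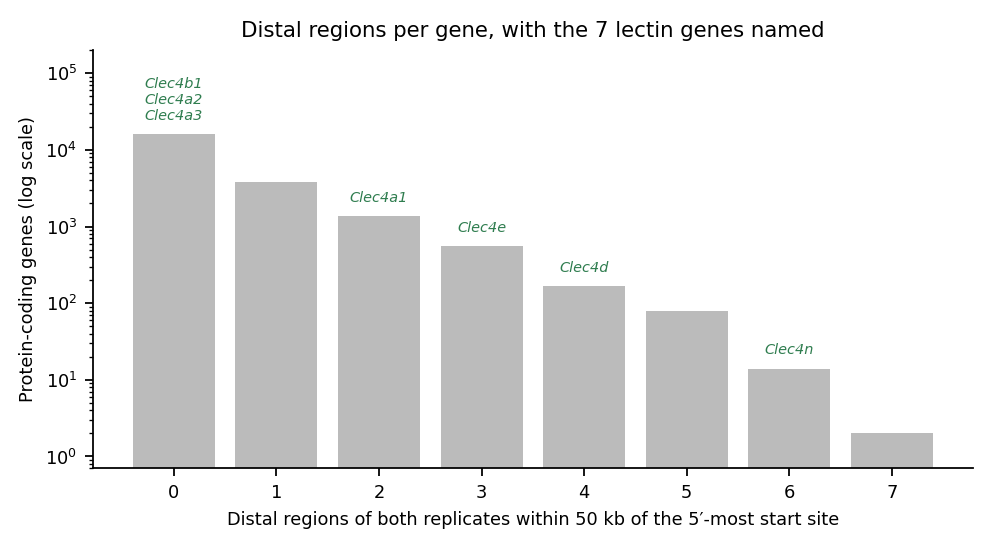
Number of protein-coding genes (vertical axis, log scale) by the number of distal regions in both IDR lists up to 50 kb from the 5′-most start (horizontal axis), with the 7 lectin genes named above the bar they belong to. Of the genes, 15889 have 0 regions, among them Clec4a2, Clec4a3 and Clec4b1, while Clec4n is among the 14 genes with exactly 6.

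Upstream of Clec4n, besides the region at 2.13 kb, 2 regions were in both IDR lists. The region 22.2 kb upstream, intergenic at chr6:123207395-123207792, had values of 14.6 in replicate 1 and 13.8 in replicate 2. Its window holds the AP-1 string at a pair of places, 19 to 13 bp and 9 to 3 bp before the summit. The region 44.8 kb upstream, in an intron of Clec4b2 at chr6:123184762-123185277, had 18.2 in replicate 1 and 9.03 in replicate 2. It ranked above 95.0% of regions in replicate 1 and above 20.8% in replicate 2.

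Around Clec4d, 3 regions were in both IDR lists. The strongest, 9.15 kb upstream at chr6:123252612-123253156, had values of 18.8 in replicate 1 and 15.3 in replicate 2, above 96.2% and 76.8% of their lists. It holds the AP-1 string and the C/EBP string, one on either side of the summit. A region in a Clec4d intron, at chr6:123265890-123266603, had 14.1 in replicate 1 and 14.6 in replicate 2. It lay 3.93 kb downstream of the 5′-most start site and 1684 bp from the nearest annotated start. Its window holds the C/EBP string over the summit, flanked by an AP-1 string on each side. The third, 1.73 kb upstream, was weaker, at 9.005 in replicate 1 and 7.97 in replicate 2, and its window held none of the strings.

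At the other end of the cluster, Clec4a1 had 2 distal regions in both IDR lists. The region 29.2 kb upstream, chr6:122892506-122892883, had values of 15.6 in replicate 1 and 13.6 in replicate 2 and holds the string AGGGGGC, the core of the CTCF motif, at its summit. That string was in 7.46% of the distal windows of the conservative list. The region 48.9 kb upstream, just inside the 50 kb limit, had 11.5 in replicate 1 and 7.81 in replicate 2. Its summit lay 1480 bp from the nearest annotated start, near the Necap1 promoter. The neighbouring gene Necap1, whose promoter lies 47.4 kb upstream of Clec4a1, had 14.5 in replicate 1 and 16.1 in replicate 2. Just outside the limit, a region 58.8 kb upstream of Clec4a1 had 14.8 in replicate 1 and 11.1 in replicate 2. On the far side, a region 50.4 kb upstream of Clec4e was in the lists of replicate 1 alone, with 10.6.

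A pair of the distal regions are near copies of each other. The region 44.8 kb upstream of Clec4n aligned over its whole length to the surroundings of the region 13.1 kb upstream of Clec4d, with 96.4% identity. How the authors placed reads that match both places is not given in the sources used here, so the values of both regions are uncertain. The second region had 8.26 in the IDR list of replicate 1 and 7.11 in the pseudoreplicated list of replicate 2, in which its −log10 IDR was 1.05. The sequences below, at chr6:123185008-123185108 and chr6:123249005-123249105 on the plus strand, are shown because they set the 2 copies side by side. Capitals mark the 3 bases that differ.
Clec4n, 44.8 kb upstream: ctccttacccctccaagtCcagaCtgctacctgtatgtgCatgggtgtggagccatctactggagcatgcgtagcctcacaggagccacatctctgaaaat
Clec4d, 13.1 kb upstream: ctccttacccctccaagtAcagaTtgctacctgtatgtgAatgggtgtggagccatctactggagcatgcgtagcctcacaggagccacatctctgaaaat
Without both copies, 7 distal regions were in both IDR lists. The weaker region 11.1 kb upstream of Clec4a2 also has a copy in the cluster, 92.6% identical over 284 bp, at chr6:123149269-123149551. The 4 promoter regions of Clec4e, Clec4a3, Clec4a2 and Clec4a1, the region 2.13 kb upstream of Clec4n and the 3 regions around Clec4d described above had 0 other alignments of at least 90% identity in the genome.

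The 15 member regions of the conservative list were searched for 11 motif strings on both strands. The strings not yet spelled out were GGAANNGAA (ETS-IRF composite), GAAANNGAA (IRF), GGAANTCCC (NF-kB), TTCCNGGAA (STAT), GGGNGTGG (KLF) and CACGTG (E-box). The IRF string can overlap the ETS-IRF composite, and the PU.1 string can overlap both the composite and RUNX. The C/EBP string was in 3 of the 15 windows, all of them printed above. The AP-1 string was in 3 of the 10 distal windows, against 6.74% of all distal windows, and the C/EBP string in 2 of the 10, against 6.56%. The RUNX string was in 0 of the 10 distal windows, against 15.1% of all distal windows, and the PU.1 string in 1, against 8.82%. The KLF string was in both of the near copies, which share their sequence and so count as 1 observation, against 5.30%. The ETS-IRF composite was in the Clec4a1 promoter window, against 2.91% of promoter windows, and in the window 48.9 kb upstream of it, against 5.61% of distal ones. The IRF string was in 0 of the 15 windows, against 2.20% of all promoter and 3.70% of all distal windows, and so was the E-box, against 4.51% and 3.01%. The NF-kB string, in 1.13% of promoter and 0.816% of distal windows, and the STAT string, in 0.455% and 0.196%, were in 0 as well. Shares this low leave few matches to be found in 15 windows, and nothing is read from these zeros. The Clec4a3 and Clec4a2 promoter windows held none of the 11, which says only that these letters are not in those windows.

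Ranked among the same 14274 regions that were in both IDR lists, the member regions stood higher in replicate 1 than in replicate 2. This held for 10 of the 11 member regions, against 47.9% of all 14274. The median member region stood above 81.4% of these regions in replicate 1 and above 65.4% in replicate 2. The exception was the region in the Clec4d intron, at 65.9% and 71.3%. The gap was widest at the copied region 44.8 kb upstream of Clec4n, at 90.6% in replicate 1 and 19.3% in replicate 2. With 1 library on each side this difference has no replicate check.

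**Figure D4:**
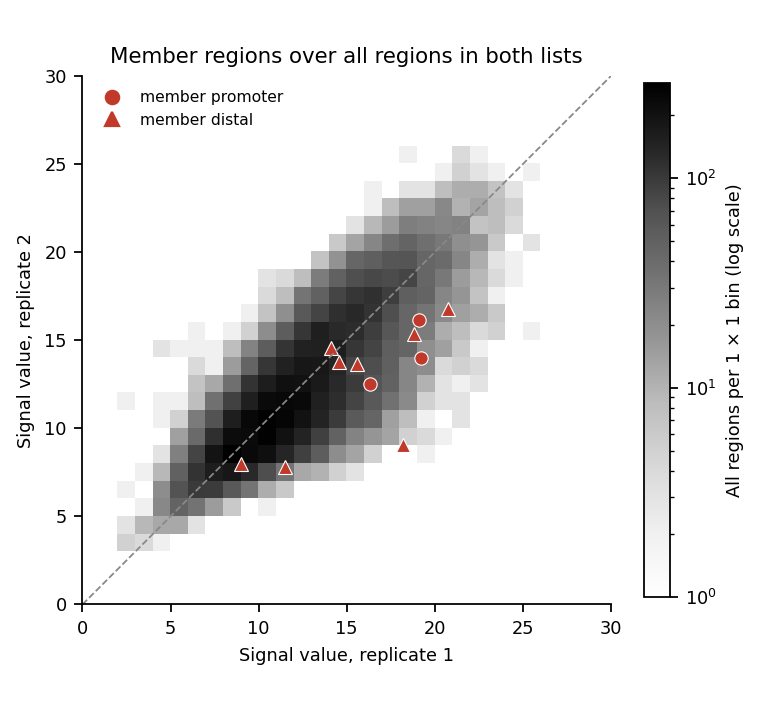
Signal values in replicate 1 (horizontal) and replicate 2 (vertical) of the 11 member regions in both IDR lists, as red circles (promoters) and triangles (distal), over the 14274 regions in both lists, in grey by number per bin on a log scale. The dashed line marks equal values; 10 of the 11 member points lie below it, and the point farthest below is the copied region 44.8 kb upstream of Clec4n, at 18.2 and 9.03.

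Most genes through which these receptors signal had an accessible promoter. Of 21 adaptor and signalling genes, 18 had a promoter region in both IDR lists, or 85.7%, against 39.8% of all protein-coding genes. The share of all genes mixes promoter classes, and it was 18.2% among genes without a CpG-rich promoter. The CpG class of the 21 genes is not given here, so the gap is not read as particular to them. The list was put together with earlier results of these data known, and no test was run on it. The genes named first were picked for their roles. Fcer1g, the adaptor chain of Mincle, MCL and Dectin-2, had signal values of 11.7 in replicate 1 and 10.9 in replicate 2. Syk, the kinase it recruits, had 7.71 and 8.65, and Card9, which links Syk to NF-kB, had 9.89 and 11.3. The highest were Traf6, a ubiquitin ligase of NF-kB signalling, at 16.4 in each, and Bcl10, the partner of Card9, at 15.1 and 17.4. Ptpn6, the phosphatase recruited by DCIR, had 10.5 and 13.8. The gene with no promoter region in either IDR list was Cebpb, encoding a C/EBP transcription factor, which had 5 distal regions in both lists. The pseudoreplicated lists held a Cebpb promoter region, at 3.42 in replicate 1 and 5.19 in replicate 2, and the conservative list did not. The conservative list held 20 of the 21 genes, against 46.7% of all genes. Both pseudoreplicated lists held 21, against 49.8%.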

How the data were processed

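The authors deposited peak lists on mm10 (GRCm38), per the file headers. Of the aligner, the peak caller, their versions, the shift of reads for the transposase and the placing of reads with several matches, nothing is given in the sources used here. Each peak has a signal value, a score the authors gave without a definition, a −log10 p from the authors and the offset of its summit. The deposited ranked lists give −log10 IDR. Lists of replicates 1 and 2 (IDR-thresholded, pseudoreplicated and ranked) and the conservative and ranked lists of both together were used, and the other pooled lists were not used here.

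Overlapping peaks of a list were merged, keeping the highest signal value and its summit. Replicates shared a region at an overlap of at least 1 bp. Start sites were those of GENCODE M21. A promoter was CpG-rich where the 500 bp on either side of the 5′-most start site reached a CpG ratio, observed over expected, of 0.6 and a GC share of 0.5. Strings were searched within 101 bp windows around summits of the RefSeq GRCm38.p6 genome, and copies were sought in that genome with BLAST 2.17.0 at 90% identity. Python 3.11.15 with numpy 2.4.6 was used, and the counting was tested on simulated data. All 7 members are named. Of other lists, the rule named the 2 genes with the highest mean promoter signal value and up to 2, in alphabetical order, with no promoter region; the receptors' adaptors, further genes of those lists and genes within or beside the cluster are named besides. One T cell entry, Trbc2, did not match a protein-coding gene. Members, lists and motif strings were chosen with earlier results of these data known. The shared promoter string and the copies were looked for after the data were seen. With 1 group of 2 replicates no test between groups was run. Alternatives were other lists, promoter widths, windows and overlaps, and each replicate alone.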

Additional observations from a re-analysis of the deposited data

How the results depend on the processing

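The count of members with a promoter region in both replicates, 3, was 5 with the pseudoreplicated lists, 5 in the conservative IDR list and 5 with a promoter width of 2.5 kb, and it ran from 3 to 5 with each replicate alone. It stayed at 3 for peaks at or above the median of their list and for an overlap of 0.5 of the shorter region, and it was 2 at the 5′-most start site alone, where Clec4a2 drops out. The 2.5 kb width adds Clec4n and Clec4d, while the other lists add Clec4a1 and Clec4d. The shares over all protein-coding genes are given above for each list. For the wider promoter, the 5′-most start site alone, the stronger peaks and the 0.5 overlap they were not computed. A wider promoter can take in more regions at any gene, so the counts at these settings are not read as a result about the members. The 11 distal regions of replicate 1 became 18 in the pseudoreplicated list, 7 among peaks at or above the list median and 7 when regions had to lie over 2.5 kb from any start site. The 8 distal regions of replicate 2 became 5 among those stronger peaks and 4 beyond 2.5 kb. Likewise the 8 distal regions in both replicates became 5 and 4, and ran from 8 to 11 with each replicate alone. The pseudoreplicated lists for replicate 2 and for both replicates, a window of 100 kb, an overlap of 0.5, the conservative list and the 2 alternatives added after the data were seen (leaving out near copies, and windows around every start site) moved no count of distal regions by more than 1.5 times. For 8 of the 11 regions in both IDR lists, the conservative value lay more than 1 SD above the mean of the replicates. That SD is of 2 values. The conservative list was made from both replicates together, and whether its score shares their scale is unknown, so nothing is read from this. The pseudoreplicated lists gave the same values as the IDR lists. The main limits are that depth is unknown, that the signal value has no stated definition, and that peaks in duplicated sequence depend on how reads were placed.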

Other observations

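Of 20 other C-type lectin receptor genes, 4 had a promoter region in both IDR lists, or 20%, against 18.2% of genes without a CpG-rich promoter and 39.8% of all protein-coding genes. The highest were Clec2d, a ligand of natural killer cell receptors, with signal values of 16.0 in replicate 1 and 13.7 in replicate 2, and Clec4g, with 15.4 and 13.4. The others were Ly75, an endocytic receptor of dendritic cells, with 8.70 in replicate 1 and 12.8 in replicate 2, and Clec12a, an inhibitory receptor of myeloid cells, with 10.3 and 10.7. Cd207 and Cd209a, receptors of Langerhans cells and other dendritic cells, had no promoter region in either list. Ly75 and Clec12a were named after their values were seen.

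Of the protein-coding genes within or beside the cluster, Clec4b2 and Vmn2r19 had no promoter region in any list. Clec4b2 nevertheless holds 2 regions in its introns, 44.8 kb and 54.1 kb upstream of Clec4n. The second was in the lists of replicate 1 alone, with a signal value of 9.80.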
